A study of Mus musculus with 4 samples.

Results

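The Dlk1-Meg3-Dio3 locus on mouse chromosome 12 is an imprinted gene cluster, and its genes were followed here in F9 cells with a knockdown of Phf19. The members were all probe sets whose platform gene symbol is exactly Meg3, Rian, Mirg, Dlk1, Rtl1 or Dio3. This gave 19 of the 45101 probe sets in the table and 4 of 18193 genes, with 11 for Meg3, 4 for Rian, 2 for Mirg and 2 for Dlk1. No probe set was listed with Rtl1 or Dio3 alone, so these protein-coding genes were not analysed here. A RefSeq gene table places all 6 genes on chromosome 12, in the order Dlk1, Meg3, Rtl1, Rian, Mirg, Dio3.

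The series consists of 4 Affymetrix expression arrays of RNA extracted from F9 cells, an embryonal carcinoma line that resembles early embryonic cells. Both groups had 2 arrays, labelled biological replicates: shPhf19 cells, infected with pLKO.1 lentivirus carrying a short hairpin RNA against Phf19, and shVector cells, infected with the pLKO.1 vector control. Both were selected with puromycin as stable populations, so both carry an integrated lentivirus. Phf19 encodes a Polycomb-like protein that binds Polycomb repressive complex 2, the histone H3 lysine 27 methyltransferase. Nothing in the labels gives the number of hairpins or of separate infections, and the p-values measure only the spread between these arrays, which may be technical. In bulk RNA, fewer cells that express a gene and less RNA per cell cannot be told apart.

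In an imprinted cluster, each gene is expressed mainly from 1 parental chromosome. At this locus the maternal chromosome gives noncoding RNAs: Meg3 (also called Gtl2), then Rian, which carries small nucleolar RNAs, then Mirg, which carries microRNAs. The paternal chromosome gives the protein-coding genes: Dlk1, a transmembrane ligand-like inhibitor of adipocyte differentiation, Rtl1, a retrotransposon-derived protein needed in the placenta, and Dio3, the deiodinase that inactivates thyroid hormone. A differentially methylated region between Dlk1 and Meg3 sets which chromosome does which. The cluster is known for its silencing in some cultured pluripotent cells, where the loss of Meg3 goes with poor developmental potential. The arrays measure total RNA of a gene and do not separate the alleles.

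The window around the first of the 2 Meg3 starts in the table is shown because Meg3, Rian and Mirg lie one after another on the same strand. It runs from 250 bases before the RefSeq start to 50 bases from it on (chr12:109540746-109541045, plus strand, GRCm38.p6), and the capitals mark a CCAAT box, a cAMP response element and a TATA box core.
Meg3 start window: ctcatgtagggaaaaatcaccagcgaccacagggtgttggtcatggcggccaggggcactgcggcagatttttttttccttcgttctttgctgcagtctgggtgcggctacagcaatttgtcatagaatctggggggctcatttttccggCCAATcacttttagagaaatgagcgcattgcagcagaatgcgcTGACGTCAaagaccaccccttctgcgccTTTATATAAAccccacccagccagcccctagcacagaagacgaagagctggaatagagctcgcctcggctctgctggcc
The motifs searched, on both strands, were TGACGTCA (cAMP response element), TATAAA and CCAAT. In this Meg3 window TGACGTCA began 57 bases before the start, TATAAA 25 bases before it with an overlapping reverse match, and CCAAT 100 bases before it. Of 32851 RefSeq windows of 300 bases, 1.79% held TGACGTCA, 13.6% held TATAAA and 37.4% held CCAAT, in either direction. The window of Rian held none of the 3 motifs. That of Mirg held only CCAAT, that of Dlk1 none, and that of Dio3 TATAAA and CCAAT. Rtl1 had no window in the table. The second Meg3 start lies further downstream (chr12:109545148-109545447, plus strand), and its window held none of the 3 motifs. The first Meg3 window had 13 CpG dinucleotides, the second 1, and that of Rian 0, against a median of 7 over all windows. A motif match is a description of the letters, not of a bound site.

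The window of Mirg is shown because it already holds microRNAs of the cluster (chr12:109734731-109735030, plus strand, GRCm38.p6). The capitals mark the DNA of mature miR-668-5p, miR-668-3p and miR-485-3p, in this order, each found at its RefSeq position.
Mirg start window: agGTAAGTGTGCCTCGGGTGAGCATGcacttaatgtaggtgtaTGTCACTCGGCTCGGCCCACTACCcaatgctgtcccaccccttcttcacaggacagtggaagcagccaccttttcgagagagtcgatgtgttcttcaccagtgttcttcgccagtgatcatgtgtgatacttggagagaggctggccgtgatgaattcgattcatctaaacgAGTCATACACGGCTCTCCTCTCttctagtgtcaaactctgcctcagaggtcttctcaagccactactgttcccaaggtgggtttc
The annotated start of Mirg therefore stands inside the microRNA cluster. RefSeq placed 54 microRNA hairpins on the plus strand between Dlk1 and Dio3. Of these, 10 lay within the span of Mirg, 27 between Rian and Mirg, 3 within Rian, and 13 within Rtl1, opposite to its coding strand. The 10 hairpins within Mirg gave 19 mature microRNAs in the table. Mature sequences from Mirg are printed with the seed, bases 2 to 8, in capitals, together with miR-494-5p, which lies between Rian and Mirg and has the same seed as miR-410-5p. The seed of miR-453 equals that of miR-496a-5p. No other pair among these 9 has the same seed.
miR-410-5p: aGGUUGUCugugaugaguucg
miR-494-5p: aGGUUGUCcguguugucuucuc
miR-453: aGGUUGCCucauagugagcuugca
miR-496a-5p: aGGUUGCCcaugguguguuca
miR-410-3p: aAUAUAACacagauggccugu
miR-369-3p: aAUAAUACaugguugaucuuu
miR-154-3p: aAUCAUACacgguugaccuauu
miR-409-3p: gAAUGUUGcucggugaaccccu
miR-377-3p: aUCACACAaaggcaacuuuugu
No probe set was listed with a microRNA gene of the domain other than Mirg itself, so the values below are of host RNAs and not of these mature microRNAs.

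The targeted gene was checked first. Phf19 probe set 1427920_at read 5.08 and 5.17 in the shPhf19 arrays, against 6.07 and 6.14 in the shVector arrays (log2 units), a fall of limma adjusted p = 0.0108, with a log2 change of -0.98 ± 0.10 (SE). Its other probe set, 1431857_at, read 6.05 and 6.26 in shPhf19, against 6.32 and 6.11 in shVector, a log2 change of -0.06 ± 0.12. The groups overlapped for this second probe set. The call of 1427920_at was lost without any 1 array, with a limma adjusted p of 0.692 without shPhf19 replicate 1, 0.554 without shPhf19 replicate 2, 0.114 without shVector replicate 1 and 0.147 without shVector replicate 2, and it was lost with the replicate number as a block (limma adjusted p = 0.203).

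Meg3, Rian and Mirg read higher in shPhf19 cells on every probe set, and 3 of their 17 probe sets passed the test. For all 17 probe sets of Meg3, Rian and Mirg, both shPhf19 arrays lay above both shVector arrays, which held for 19.4% of all 45037 probe sets tested. The log2 changes lay between 0.26 and 0.64, that is between 1.20-fold and 1.56-fold, with a median of 0.46 against -0.01 over all probe sets. All 17 had a 95% interval above 0, which held for 6.57% of all probe sets. After adjustment over all probe sets, 3 of the 19 members passed limma's test at 0.05, all of them higher, where 0.83% of all probe sets passed as higher and 1.41% in either direction. Several probe sets read the same RNA and the 3 genes share their arrays, so the 17 are not independent. The plot of the 4 arrays shows the separation probe set by probe set.

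**Figure D1:**
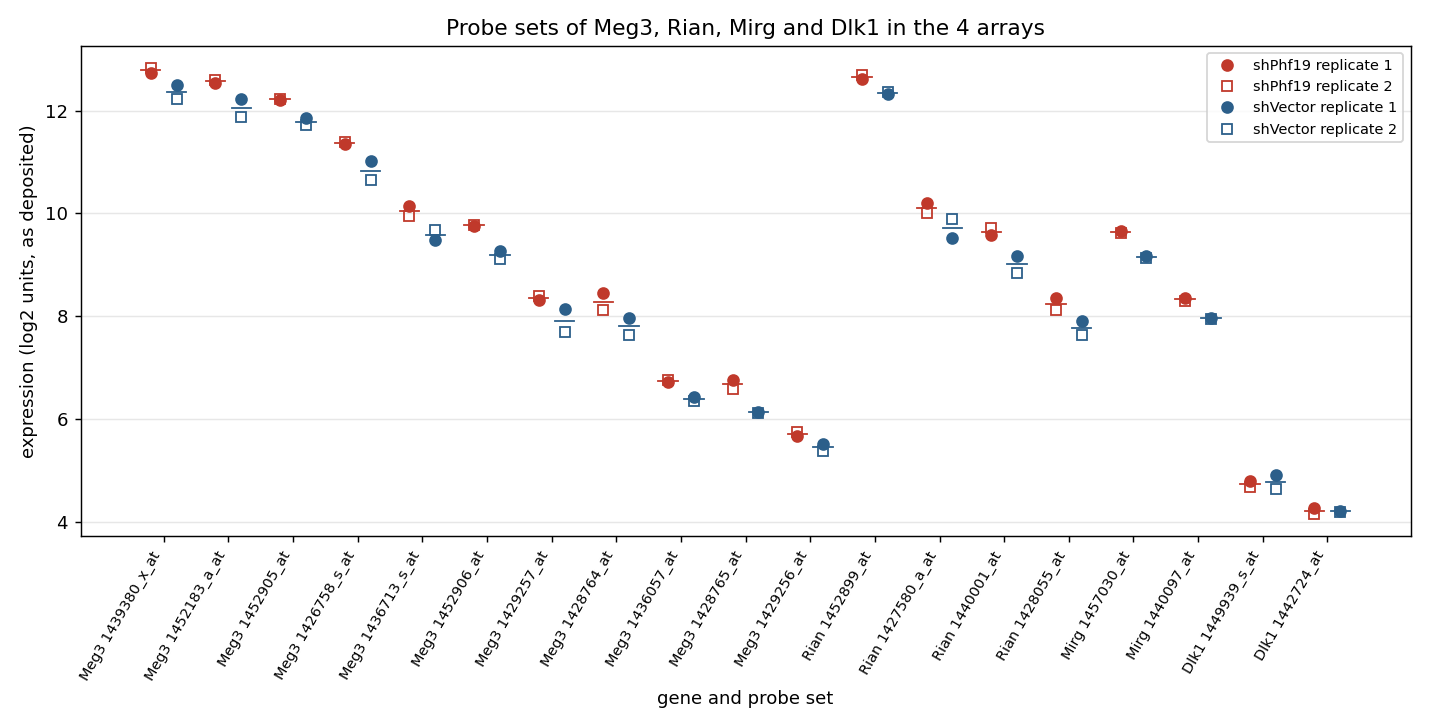
Expression on the deposited log2 scale (vertical axis) for each of the 19 probe sets (horizontal axis), with 1 point per array, shPhf19 in red on the left and shVector in blue on the right of each pair, and a short bar at each group's mean (n = 2). The red points lie above the blue points for all 17 Meg3, Rian and Mirg probe sets, and the colours overlap for both Dlk1 probe sets.

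Meg3, a long noncoding RNA whose gene opens the maternal transcripts, rose on 2 of its 11 probe sets. Probe set 1452906_at read 9.75 and 9.78 in shPhf19, against 9.26 and 9.11 in shVector. This was the largest Meg3 change, at 0.58 ± 0.08 (SE; 1.5-fold, 95% interval 1.31-fold to 1.71-fold; limma adjusted p = 0.0269). Probe set 1452905_at read 12.21 and 12.22 in shPhf19, against 11.85 and 11.71 in shVector, a log2 change of 0.44 ± 0.06 (1.35-fold; limma adjusted p = 0.0301). For both, the lowest shPhf19 array exceeded the highest shVector array, by 0.49 and 0.36.

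The remaining 9 Meg3 probe sets had limma adjusted p-values from 0.0695 to 0.344 and did not pass. The brightest, 1439380_x_at, read 12.74 and 12.82 in shPhf19, against 12.50 and 12.22 in shVector (log2 change 0.42 ± 0.09). Its sequence class, marked _x_at, can also hybridise to other transcripts. Probe set 1452183_a_at read 12.54 and 12.59 in shPhf19, against 12.23 and 11.88 in shVector (log2 change 0.51 ± 0.11). Probe set 1426758_s_at, from the same source sequence as 1452183_a_at, read 11.35 and 11.38 in shPhf19, against 11.01 and 10.65 in shVector (log2 change 0.54 ± 0.12). In all of these the shPhf19 arrays lay close together and the shVector arrays lay apart, with replicate 1 above replicate 2.

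The dimmer Meg3 probe sets had changes of similar or smaller size. Probe set 1428765_at read 6.76 and 6.58 in shPhf19, against 6.13 and 6.12 in shVector (log2 change 0.54 ± 0.10). Probe sets 1429257_at and 1428764_at were at 0.44 ± 0.15 and 0.48 ± 0.15, the widest errors among the Meg3 probe sets, and the shVector replicates of 1429257_at differed by 0.45. The smallest change was that of 1429256_at, the dimmest, which read 5.67 and 5.75 in shPhf19, against 5.52 and 5.38 in shVector (0.26 ± 0.10; limma adjusted p = 0.344). Probe set 1436057_at was at 0.35 ± 0.09. Of the 11 probe sets, 7 came from 3 source sequences that each gave more than 1 probe set.

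Rian, the host of a small nucleolar RNA array and 3 microRNA hairpins, did not pass the test on any of its 4 probe sets. Probe set 1452899_at read 12.61 and 12.70 in shPhf19, against 12.32 and 12.37 in shVector. Its log2 change of 0.31 ± 0.05 (1.24-fold) was the smallest of the gene and had limma adjusted p = 0.0501. Probe set 1440001_at read 9.58 and 9.71 in shPhf19, against 9.17 and 8.84 in shVector, a log2 change of 0.64 ± 0.12, the largest of all members (1.56-fold; limma adjusted p = 0.0674). Probe set 1428055_at was at 0.46 ± 0.13. All 4 Rian probe sets had both shPhf19 arrays above both shVector arrays.

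Rian probe set 1427580_a_at and Meg3 probe set 1436713_s_at had a common order of arrays that differed from most of the others. The Rian probe set read 10.20 and 10.01 in shPhf19 replicates 1 and 2, against 9.53 and 9.88 in shVector replicates 1 and 2. The Meg3 probe set read 10.14 and 9.95 in shPhf19 replicates 1 and 2, against 9.48 and 9.68 in shVector replicates 1 and 2. In both, shVector replicate 2 lay above shVector replicate 1, as it also did, by a smaller margin, for 1452899_at of Rian. In the other 14 of the 17 probe sets shVector replicate 1 was the higher one.

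Mirg, whose span holds 8 of the 9 mature microRNAs listed above by seed, rose on 1 of its 2 probe sets. Probe set 1457030_at read 9.65 and 9.62 in shPhf19, against 9.17 and 9.14 in shVector. The log2 change was 0.48 ± 0.07 (1.39-fold, 95% interval 1.24-fold to 1.56-fold; limma adjusted p = 0.0321). Probe set 1440097_at read 8.35 and 8.30 in shPhf19, against 7.97 and 7.95 in shVector, a log2 change of 0.36 ± 0.08 (1.29-fold; limma adjusted p = 0.105). Both Mirg probe sets had replicates within 0.06 of each other in each group.

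**Figure D2:**
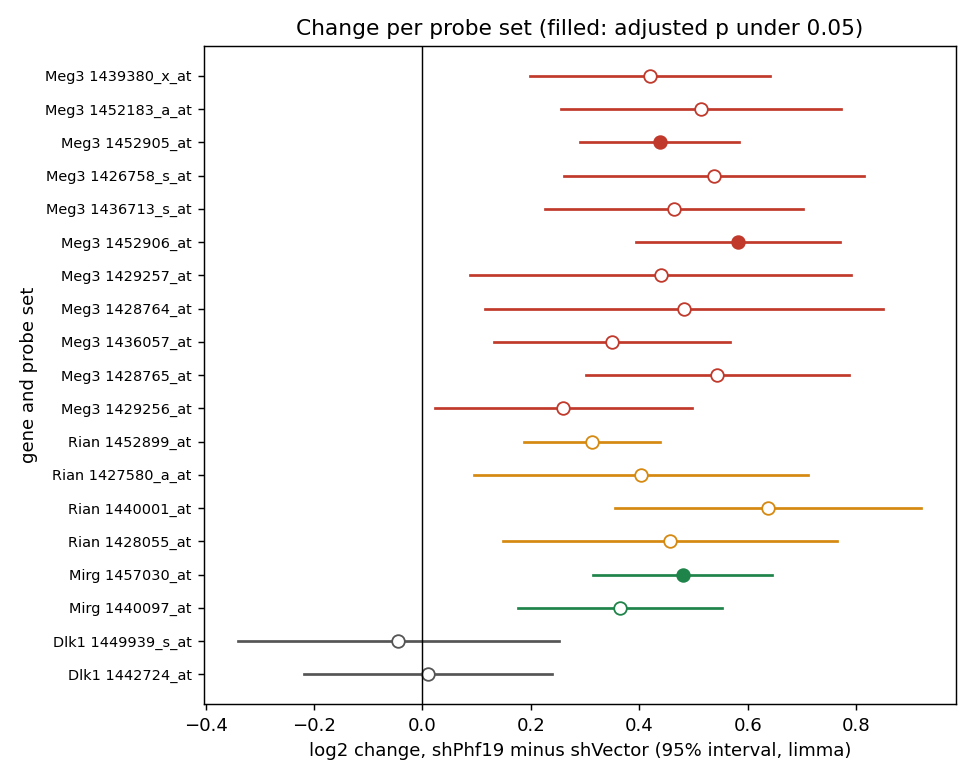
Log2 change of each probe set (shPhf19 minus shVector, horizontal axis) with its 95% interval from limma, for the probe sets of Meg3, Rian, Mirg and Dlk1 (vertical axis), filled where the adjusted p was under 0.05. The 17 noncoding RNA probe sets lie between 0.26 and 0.64 with intervals above 0, 3 of them filled, and both Dlk1 intervals span 0.

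Dlk1, the paternally expressed neighbour of Meg3, showed no call. Probe set 1449939_s_at read 4.79 and 4.67 in shPhf19, against 4.91 and 4.64 in shVector, a log2 change of -0.04 ± 0.12 (95% interval -0.34 to 0.25; limma adjusted p = 0.948). Probe set 1442724_at read 4.27 and 4.15 in shPhf19, against 4.20 in both shVector arrays, a log2 change of 0.01 ± 0.10 (95% interval -0.22 to 0.24; limma adjusted p = 0.989). The groups overlapped on both. These probe sets stood at the 34.8th and 25.5th percentile of mean level among all probe sets, where the table has no detection calls and a value may be background. Probe sets differ in affinity, so the percentile does not rank the abundance of Dlk1 against Meg3. Whether the change of Dlk1 differs from that of Meg3 was not tested.

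Each gene was also read as a whole. By its brightest probe set the log2 change was 0.42 for Meg3, 0.31 for Rian and 0.48 for Mirg. With the probe sets of each gene averaged, a setting chosen after seeing the data, the log2 change was 0.46 ± 0.08 for Meg3 (limma adjusted p = 0.0336), 0.45 ± 0.06 for Rian (limma adjusted p = 0.0133) and 0.42 ± 0.06 for Mirg (limma adjusted p = 0.0209). The average of Meg3 was 9.51 and 9.48 in shPhf19, against 9.14 and 8.95 in shVector. That of Rian was 10.19 and 10.13 in shPhf19, against 9.73 and 9.68 in shVector, and that of Mirg 9.0 and 8.96 in shPhf19, against 8.57 and 8.54 in shVector. Dlk1 was at -0.02 ± 0.09. Differences between the genes were not tested. In this fit 1.59% of 18193 genes passed as higher and 3.02% in either direction. Without shVector replicate 1 the log2 changes of Meg3, Rian and Mirg lay between 0.44 and 0.55, and without shVector replicate 2 between 0.36 and 0.43. They lay between 0.40 and 0.44 without shPhf19 replicate 1, and between 0.44 and 0.48 without shPhf19 replicate 2. In none of these fits did all 3 genes pass. Without the intensity trend 2 of the 3 passed, where 2.09% of all genes passed in either direction, and Meg3 did not (limma adjusted p = 0.0598). With the replicate number as a block 0 passed, at limma adjusted p-values from 0.131 to 0.167, where 49 of all genes passed.

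The size of the change moved with the shVector array used, and its direction did not. Without shVector replicate 1 the median over the 17 probe sets was 0.55, and without shVector replicate 2 it was 0.35. Without shPhf19 replicate 1 it was 0.44 and without shPhf19 replicate 2 it was 0.50. In these 4 fits all 17 log2 changes stayed above 0, the lowest being 0.19 for Meg3 1429256_at. Changes of single probe sets moved further: Meg3 1429257_at was at 0.66 without shVector replicate 1 and at 0.22 without shVector replicate 2, and Rian 1427580_a_at was at 0.23 without shVector replicate 1 and at 0.58 without shVector replicate 2. The median gap between replicates over the 17 was 0.08 in shPhf19 and 0.20 in shVector, against 0.09 in shPhf19 and 0.12 in shVector over all probe sets.

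No member passed with any 1 array left out, when 0 probe sets of the whole array passed limma's test at 0.05. In these fits the log2 change of Meg3 1452906_at lay between 0.51 and 0.65. That of Meg3 1452905_at lay between 0.37 and 0.51, and that of Mirg 1457030_at between 0.46 and 0.50. With all arrays 17 members had an unadjusted limma p under 0.05, where 5708 of all 45037 probe sets did. Without an intensity trend in the variance, 0 members passed (limma adjusted p from 0.0616 up). In that fit 17 had an unadjusted limma p under 0.05, where 5552 of all probe sets did. With the replicate number as a block 0 members passed and 15 had an unadjusted limma p under 0.05, where 3890 of all probe sets did.

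**Figure D3:**
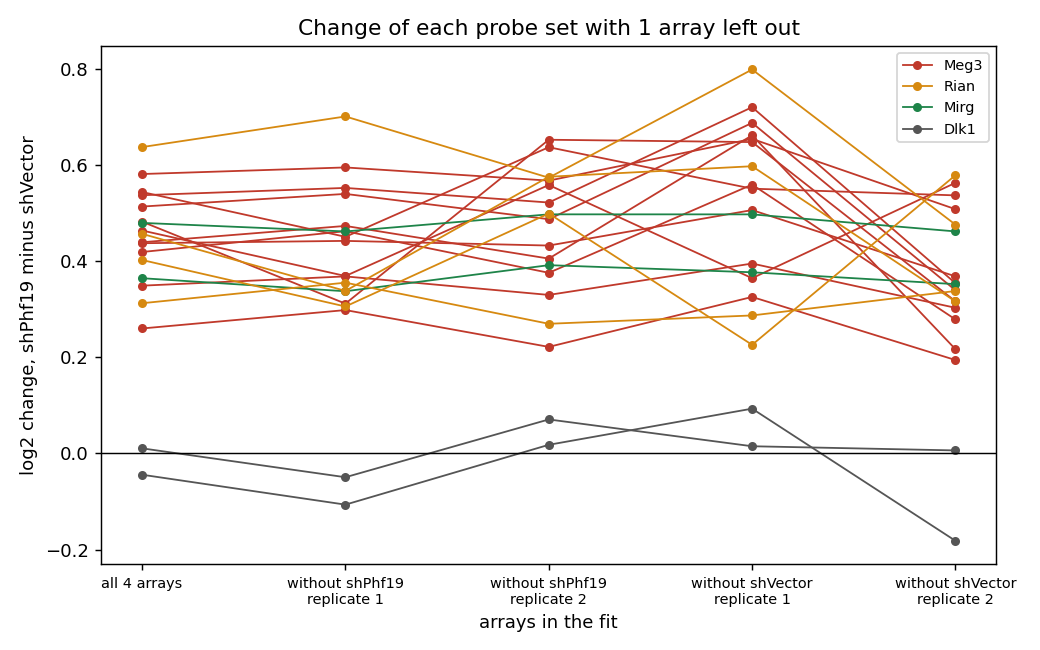
Log2 change of each probe set (shPhf19 minus shVector, vertical axis) with all 4 arrays and with each array left out in turn (horizontal axis), 1 line per probe set, coloured by gene. The lines of Meg3, Rian and Mirg stay between 0.19 and 0.80, spread upward without shVector replicate 1 and downward for most without shVector replicate 2, while the Dlk1 lines stay near 0.

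Other genes along the chromosome were read from their brightest probe sets. Inside the domain, Dio3os, the noncoding RNA gene antisense to Dio3, read 5.25 and 5.28 in shPhf19, against 5.29 and 5.14 in shVector (log2 change 0.05 ± 0.10; limma adjusted p = 0.915). The noncoding RNA gene 3110009F21Rik, which lies between Mirg and Dio3os and was added by its position, was at -0.03 ± 0.18, at the 12.3th percentile of level. Begain, next to Dlk1, had no single-gene probe set and was not analysed here. Of 21 measured genes flanking the domain, 11 before Dlk1 and 10 after Dio3, none passed, where 2.02% of 18193 genes passed in either direction. Their median log2 change was 0.00, within a range from -0.16 to 0.26.

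Of these 21 flanking genes 2 had an unadjusted limma p under 0.05, where 5708 of all 45037 probe sets did. Ppp2r5c, a regulatory subunit gene of protein phosphatase 2A and the nearest listed gene after Dio3, read 12.33 and 12.30 in shPhf19, against 12.09 and 12.05 in shVector (log2 change 0.25 ± 0.05; limma adjusted p = 0.0815). Its other 6 probe sets ran from -0.02 to 0.28 and none passed. Without the dimmest 50% of probe sets, Ppp2r5c passed (limma adjusted p = 0.0494). Evl, an actin regulator gene before Dlk1, was at 0.26 ± 0.07 (limma adjusted p = 0.198), with its other 3 probe sets between 0.10 and 0.14. The differences between Meg3, Rian and Mirg and their neighbours were not tested.

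**Figure D4:**
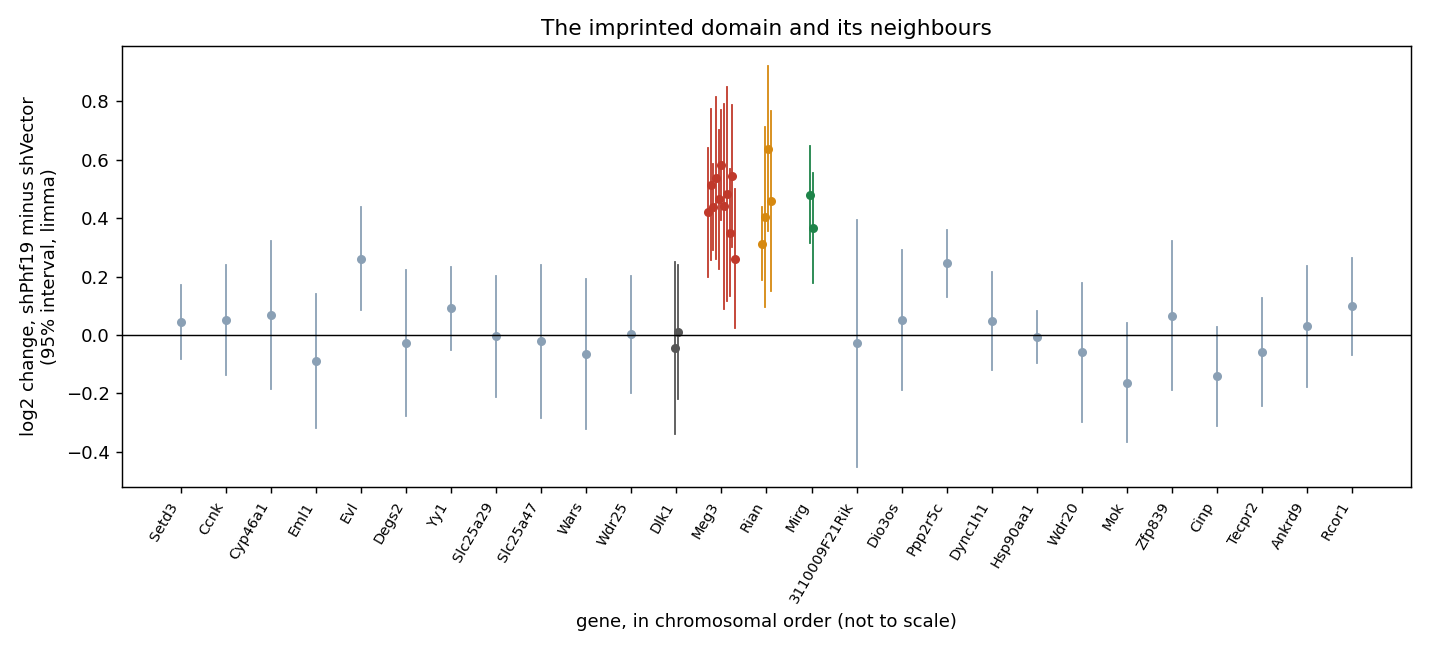
Log2 change (shPhf19 minus shVector, vertical axis) with its 95% interval from limma for listed genes in their order on chromosome 12 (horizontal axis, not to scale), with every probe set of Meg3, Rian, Mirg and Dlk1 and the brightest probe set of each other gene. The points of Meg3, Rian and Mirg lie between 0.26 and 0.64, and those of the other genes between -0.16 and 0.26.

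Genes linked to imprinting or to DNA methylation were read in the same fit by their brightest probe sets. They were listed because the allelic state of this locus rests on DNA methylation. The list was made with earlier results of these data known, so the count below does not test it. Of 19 genes, all measured, 3 rose, 1 fell and 15 did not pass, where 1.15% of all genes passed as higher and 2.02% in either direction. Their median log2 change was 0.12, against 0.00 over all genes. Dnmt3l, the catalytically inactive partner of the de novo methyltransferases, read 11.41 and 11.37 in shPhf19, against 10.38 and 10.63 in shVector (log2 change 0.88 ± 0.09; 1.84-fold; limma adjusted p = 0.0130). Aff3, which encodes a protein of the super elongation complex family known to bind the imprinting control region of this locus in mouse embryonic stem cells, read 7.0 and 7.09 in shPhf19, against 6.30 and 6.37 in shVector (0.71 ± 0.09; 1.64-fold; limma adjusted p = 0.0229). Its other probe set was at -0.01. On the brightest probe set of both Dnmt3l and Aff3, every shPhf19 array lay above every shVector array.

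The de novo methyltransferase gene Dnmt3b read 12.61 and 12.58 in shPhf19, against 12.33 and 12.30 in shVector. This was a rise of 0.28 ± 0.05 on the log2 scale (limma adjusted p = 0.0482). The other probe set of Dnmt3b was at 0.335 and did not pass. Dnmt3a, the methyltransferase gene that acts with Dnmt3l in germ cells, was at 0.48 ± 0.12 and did not pass by its brightest probe set (limma adjusted p = 0.164). Its other 4 probe sets ran from 0.39 to 0.59 and 1 of them passed. Dnmt1, the maintenance methyltransferase gene, was the member that fell: it read 11.41 and 11.53 in shPhf19, against 11.87 and 11.83 in shVector (log2 change -0.38 ± 0.06; limma adjusted p = 0.0425), with its other 2 probe sets at -0.41 and -0.33, neither passing. Zfp57, the zinc finger protein gene that protects imprints after fertilisation, was at 0.12 ± 0.08, and Trim28, its corepressor partner, at 0.00 ± 0.04. Without any 1 array none of the 4 calls held: Dnmt3l ran from 0.75 to 1.01, Aff3 from 0.67 to 0.76, Dnmt3b from 0.26 to 0.30 and Dnmt1 from -0.44 to -0.33. None held with the replicate number as a block.

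**Figure D5:**
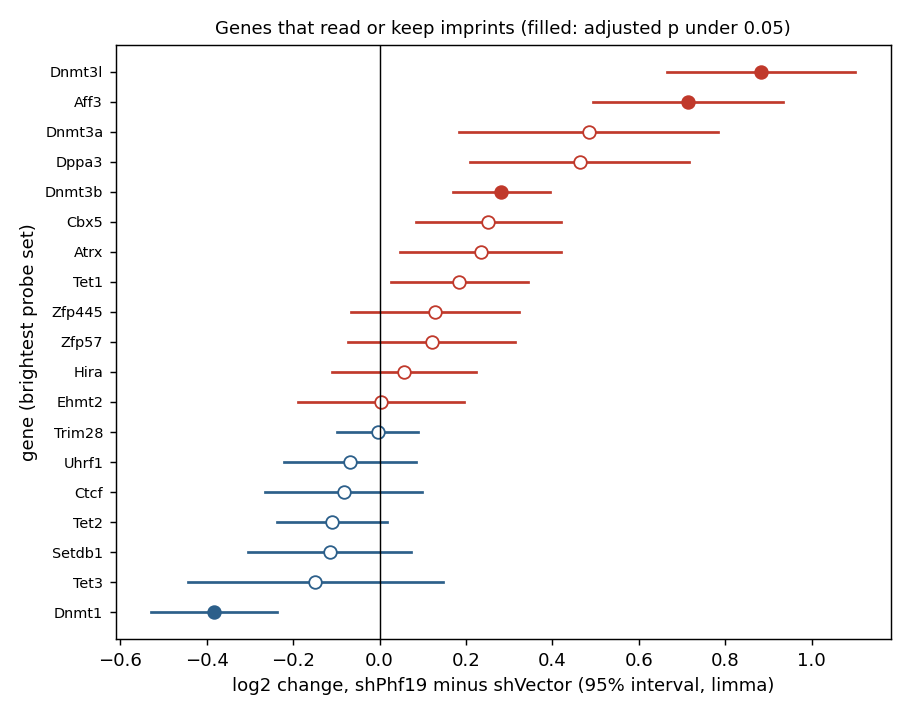
Log2 change (shPhf19 minus shVector, horizontal axis) with its 95% interval from limma for 19 genes linked to imprinting or to DNA methylation (vertical axis, brightest probe set each), filled where the adjusted p was under 0.05. Dnmt3l, Aff3 and Dnmt3b are filled above 0, and Dnmt1 is filled below 0.

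The genes with the profile most like that of Meg3, Rian and Mirg were Camkv, Pros1, Nab1, Syt17 and Hip1. Likeness was the root mean square distance, over the 4 arrays, between the centred values of a gene and the mean centred profile of the brightest probe sets of Meg3, Rian and Mirg, among 11181 genes at or above the median level. The distances of the 5 genes ran from 0.008 to 0.021 on the log2 scale. Those of Meg3, Rian and Mirg themselves were 0.070, 0.069 and 0.051, and 224 of the 11181 genes were closer than the farthest of them. Over 4 arrays the profile is thus not particular to Meg3, Rian and Mirg. None of the 5 passed the test (limma adjusted p from 0.0674 to 0.127).

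Markers of the cells were read beside these changes. All 8 embryonal carcinoma markers stood at the 91.1th percentile of level or above, and none passed the test. The smallest p-values among them were those of Nanog, at a log2 change of -0.26 ± 0.05 (limma adjusted p = 0.0923), and Dppa4, at 0.25 ± 0.06 (limma adjusted p = 0.146). Of 10 endoderm markers, 2 rose by their brightest probe sets, where 1.15% of all genes passed as higher. These were Gata6, by 1.19 ± 0.13, and Cubn, by 2.3 ± 0.09, on the log2 scale. Without 1 array Gata6 ran from 1.025 to 1.35 and Cubn from 2.28 to 2.31. Neither call held with the replicate number as a block, where 0 probe sets passed. The other 2 probe sets of Gata6 were at 0.002 and 0.083 and did not pass, and the other one of Cubn was at 1.34 and passed. Sox17 was at 0.27 by its brightest probe set, which did not pass, and at 1.41 by its other one, which passed. By their brightest probe sets, 6 of the 10 genes had a log2 change above 0. The 10 genes' summed linear signal was between 1110.5 and 1110.6 in shPhf19, against 945.4 to 1077 in shVector. Sox7, the brightest of the 10, weighs most in this sum. It read 9.16 in both shPhf19 arrays, against 9.26 and 9.55 in shVector, a log2 change of -0.24 ± 0.11 that did not pass. The 7 fibroblast markers had none that passed, and 6 of them were below the median level. Their summed linear signal was from 193 to 198 in shPhf19, against 188 to 189 in shVector. Yet only 2 of the 7 had a log2 change above 0, with a median of -0.17. The largest was that of Thy1, the brightest of the 7, at 0.46 ± 0.12 (limma adjusted p = 0.169). The part of the endoderm markers in the changes of Meg3, Rian and Mirg was not tested. Arrays of the same group correlated at 0.998 in shPhf19 and 0.997 in shVector (Pearson's r over probe sets), and at 0.996 to 0.997 between groups.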

How the data were processed

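Each probe set has 1 value per array in the table that the authors deposited, for 2 shPhf19 and 2 shVector arrays. The unit was read here as log2 expression, because the deposited values ran from 2.31 to 14.7 with array medians between 5.75 and 5.77. How the authors summarised probes and corrected background is not stated in the labels; such steps can compress fold changes. GEO's platform annotation gave 34945 tested probe sets 1 gene symbol and 932 several, with 9160 unlisted. Start windows (found for 5 of 6 members) and microRNAs are from RefSeq (GRCm38.p6).

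After 64 control probe sets were removed, limma's linear model (version 3.58.1, under R 4.3.3) was fitted to the other 45037 as shPhf19 minus shVector, with 2 residual degrees of freedom and moderated variances that follow a trend in intensity. Tests were two-sided, p-values were Benjamini-Hochberg adjusted over all probe sets, the threshold was 0.05, and SE is the moderated error. Each listed gene outside the members is represented by its brightest single-gene probe set. The number of arrays limits the precision.

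Members, lists and tests were chosen with earlier results of these data known. Named genes are all member probe sets, Phf19, regulators, domain and flanking genes that passed or, where none in a list passed, its 2 with the smallest p, a few fixed regulators, and the 5 nearest profiles; cell type markers were named outside this rule, and 3110009F21Rik was added by its position. Groups share replicate numbers, but same-numbered arrays deviated from their group means at a correlation of -0.20, so the fit has no replicate term. Alternatives were no variance trend, quantile normalization, median centring, leaving out the dimmest 25% or 50%, a replicate block, leaving out each array, and averaging the probe sets of a gene.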

Additional observations from a re-analysis of the deposited data

How the results depend on the processing

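The 17 Meg3, Rian and Mirg probe sets kept log2 changes above 0 in every fit run that included them, with the median between 0.35 and 0.55. Of 19 members, 3 passed with all arrays, against 0 without an intensity trend. With quantile normalization 6 passed, where 856 of all probe sets did, and with median centring 5, where 736 of all did. Without the dimmest 25% of probe sets 4 passed, where 771 of all did. Without the dimmest 50%, 16 members were tested and 6 passed, where 796 of all did. The same 3 were among those passing in each fit that called any. Over all probe sets 636 passed, against 380 without the trend, and 0 in each fit without 1 array, where 2539 to 6942 had an unadjusted limma p under 0.05. Of the imprint regulators 4 passed, against 2 without the trend and 0 in each fit without 1 array. Of the neighbours 0 passed with all arrays, and 1 passed without the dimmest 50%. With all arrays 2 neighbours had an unadjusted limma p under 0.05, where 5708 of all probe sets did.

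With a replicate block 0 member probe sets, 0 regulators and 0 probe sets in all passed, with 15, 7 and 3890 at an unadjusted limma p under 0.05; the labels do not say that a number marks a shared batch. Crossing the numbers of the block, tried once the values were seen, called 5 members and 596 probe sets.

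Signs turned for values near 0. Leaving out 1 array gave -0.18 to 0.093 for Dlk1 1449939_s_at (0.018 without shPhf19 replicate 2), -0.049 to 0.071 for Dlk1 1442724_at and -0.16 to 0.052 for Phf19 1431857_at (0.047 without shPhf19 replicate 1). Averaged Dlk1 was at 0.054 without shVector replicate 1 and 0.044 without shPhf19 replicate 2. A fit without 1 array assumes that the lone array varies like the other group. The causes were not tested. Dim probe sets such as those of Dlk1 may read background.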
